A study of Mus musculus with 2 samples.

Results

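The retinal guanylate cyclases, their calcium sensors and the partner proteins RD3 and AIPL1 were read by 9 probes for 6 genes, among 20659 genes to which probes of the array could be matched. The members were the probes whose transcript name matches Guca1a, Guca1b, Gucy2e, Gucy2f, Rd3 or Aipl1: 2 probes for Guca1b, 3 for Gucy2e and 1 for each of the other genes. The set was chosen by its Mef2d KO against WT differences, with the low Guca1a and Guca1b values already known, so the values below describe these arrays and carry no test. The study hybridised RNA of whole retina, dissected with forceps at postnatal day 14, to single-colour Agilent arrays, 1 array labelled Mef2d KO and 1 array of WT retina. MEF2D is a transcription factor, and the arrays set retina RNA labelled as lacking its gene against retina RNA labelled wild-type. The sources used here give neither the allele of the knockout nor the strain, sex or number of the mice behind either array.

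In rods and cones, light lowers cyclic GMP and closes the channels that it holds open, and calcium in the outer segment drops. The membrane guanylate cyclases GC1 and GC2, encoded in the mouse by Gucy2e and Gucy2f, then rebuild cyclic GMP. They are switched on by the guanylate cyclase activating proteins GCAP1 (Guca1a) and GCAP2 (Guca1b), EF-hand proteins that stimulate the cyclase when calcium is low and restrain it when calcium is high. RD3 keeps the cyclase silent while it travels to the outer segment, and AIPL1 is a co-chaperone needed to fold the phosphodiesterase that breaks cyclic GMP down. Both calcium sensors were lower on the array labelled Mef2d KO, Guca1b far more than Guca1a. The 2 cyclases and both partners differed by at most 0.27 on the log2 scale.

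Each group is a single array, so no difference could be checked against replicates and no p-value was computed. A level is the log2 processed signal of a probe minus its array's 75th percentile, and a difference is the level on the array labelled Mef2d KO minus that on the WT array. Errors written as ± are the SD that the scanner software's error model gives for a difference. They cover the spot and not the mice or dissections. For bright spots this SD was close to 0.20 whatever the gene, above the median SD of 0.082 that repeat spots gave. The software flagged 69.6% of probe spots as well above background on the array labelled Mef2d KO and 75.5% on the WT array, and 0 spots were saturated. Neither Mef2d probe was lower on the array named for its loss (differences 0.43 ± 0.20 and 0.14 ± 0.21). The sources used here do not place them relative to the deletion, so they check nothing. For Xist, the RNA of the inactive X chromosome, the array labelled Mef2d KO exceeded WT by at least 51.9-fold and at least 26.5-fold for the matched probes, neither of them well above background in WT. The Y-linked genes Eif2s3y, Ddx3y, Uty and Kdm5d were well above background on both arrays, with differences between -0.76 and -0.36. Genotype, sex composition and array cannot be told apart in these data. All 10 rod markers and all 10 cone markers examined were well above background on both arrays.

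The promoter windows of 3 members are shown because Guca1a, which was lower, and the cyclase genes Gucy2e and Gucy2f, which stayed within 2-fold, carry the same short motif. Capitals mark the core motif of the photoreceptor factor CRX, TAATCC or its reverse complement GGATTA. The windows are from RefSeq, build GRCm38.p6, each running 5′ to 3′ from 250 bases before to 50 bases after a gene start, on the minus strand at chr17:47400557-47400856 (Guca1a), chr11:69236973-69237272 (Gucy2e) and chrX:142196887-142197186 (Gucy2f).
Guca1a: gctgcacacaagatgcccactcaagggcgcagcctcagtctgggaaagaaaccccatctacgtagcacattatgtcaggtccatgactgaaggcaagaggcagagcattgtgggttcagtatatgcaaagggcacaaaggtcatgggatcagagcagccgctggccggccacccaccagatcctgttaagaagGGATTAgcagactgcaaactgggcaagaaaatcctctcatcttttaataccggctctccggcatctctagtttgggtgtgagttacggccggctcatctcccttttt
Gucy2e: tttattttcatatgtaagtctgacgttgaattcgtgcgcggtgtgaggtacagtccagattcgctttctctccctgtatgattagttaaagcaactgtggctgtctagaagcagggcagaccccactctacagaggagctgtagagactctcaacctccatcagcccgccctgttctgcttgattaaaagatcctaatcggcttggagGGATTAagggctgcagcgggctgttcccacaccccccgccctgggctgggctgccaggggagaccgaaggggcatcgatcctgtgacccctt
Gucy2f: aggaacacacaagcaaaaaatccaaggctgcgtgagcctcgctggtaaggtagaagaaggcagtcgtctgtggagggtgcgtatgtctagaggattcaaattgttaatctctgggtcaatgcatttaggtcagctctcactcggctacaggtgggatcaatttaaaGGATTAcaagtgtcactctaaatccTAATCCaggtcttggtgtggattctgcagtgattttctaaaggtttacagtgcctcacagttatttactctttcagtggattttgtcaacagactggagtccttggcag
The Guca1a window holds 1 core motif, whose first base lies 57 bases before the start. The Gucy2e window holds 1, beginning 42 bases before the start, and the Gucy2f window holds 2, beginning 84 and 59 bases before it. The Aipl1 window (chr11:72037460-72037759, minus strand) also holds 2. Neither Rd3 window holds one. Among all 32851 windows of the table, 7.06% hold the core motif on either strand. No window was available for Guca1b, so its promoter was not searched for either motif. The MEF2 consensus, searched on both strands, was found in 0 of the 6 windows of the other 5 genes and in 3.19% of all windows. For each of these genes the annotation extends further upstream, so starts outside the windows were not searched. A match is a description of letters and was not tested as a binding site.

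Guca1b, encoding GCAP2, showed the larger difference of the calcium sensors. Its brighter probe had a median pixel signal of 1256 on the array labelled Mef2d KO and 41976 on the WT array, over local backgrounds of 35 and 37. After the scanner software's processing the signals were 1340 ± 134 on the array labelled Mef2d KO and 45778 ± 4578 on the WT array. As levels these were 0.64 on the array labelled Mef2d KO and 5.83 on the WT array. The WT spot was thus far brighter, and both spots were well above background. The difference was -5.18 ± 0.20, or 36.3-fold lower. The other Guca1b probe gave the same direction, with processed signals of 124.3 ± 12.9 on the array labelled Mef2d KO and 8602 ± 860 on the WT array. Its difference was -6.20 ± 0.21, or 73.5-fold lower. The 2 probes therefore disagreed in size by 1.02 ± 0.29. The second probe was the dimmer of the pair on the array labelled Mef2d KO, at 6.38 times its local background, and with normexp background correction its difference was -5.39, against -5.14 for the brighter probe.

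Guca1a, encoding GCAP1, was lower to a smaller extent. Its single probe read a median pixel signal of 4352 on the array labelled Mef2d KO and 18995 on the WT array, over local backgrounds of 28 and 32. The processed signals were 4868 ± 487 on the array labelled Mef2d KO and 21146 ± 2115 on the WT array, at levels of 2.50 and 4.71. The difference was -2.21 ± 0.20, or 4.62-fold lower. This gene thus kept a signal 155.4 times its local background on the array labelled Mef2d KO. Its difference stood 2.97 ± 0.29 above that of the brighter Guca1b probe, so the sensors differed between arrays to unequal degrees. Retina RNA was measured in bulk, so fewer cells of a type and less RNA per cell cannot be told apart.

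The cyclases, the enzymes that the sensors act on, did not share these decreases. Gucy2e, encoding GC1, was read by 3 probes, and the brightest had processed signals of 567.4 ± 56.8 on the array labelled Mef2d KO and 590.3 ± 59.1 on the WT array. The second gave 336.5 ± 33.8 on the array labelled Mef2d KO and 369.6 ± 37.1 on the WT array. The third gave 319.4 ± 32.1 on the array labelled Mef2d KO and 337.9 ± 34.0 on the WT array. The arrays were close for all 3 probes, with differences of -0.14 ± 0.20, -0.22 ± 0.20 and -0.17 ± 0.21. Across these probes the differences lay within 0.08 of each other, less than the error model SD, which is nearly the same for every bright spot. Gucy2f, encoding GC2 on the X chromosome, had processed signals of 1506 ± 151 on the array labelled Mef2d KO and 1259 ± 126 on the WT array, a difference of 0.17 ± 0.20. The 592 measured genes of the X chromosome had a median difference of -0.047. Gucy2e and Gucy2f thus had differences of opposite sign that were apart by 0.32 ± 0.29, and neither differed from 0 by more than its error model SD, apart from 1 Gucy2e probe at -0.22 ± 0.20.

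The partner genes were also close between arrays. Rd3, whose product inhibits the cyclase and carries it to the outer segment, had processed signals of 7045 ± 705 on the array labelled Mef2d KO and 6924 ± 692 on the WT array. Its difference was -0.062 ± 0.20. Aipl1, the co-chaperone gene, had processed signals of 7619 ± 762 on the array labelled Mef2d KO and 5945 ± 595 on the WT array. Its difference of 0.27 ± 0.20 was the highest among the 6 genes. With a multiple of 2 error model SDs, the difference of Rd3 spanned -0.47 to 0.35 and that of Aipl1 -0.14 to 0.68, so changes of that size were not resolved on these arrays.

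**Figure D1:**
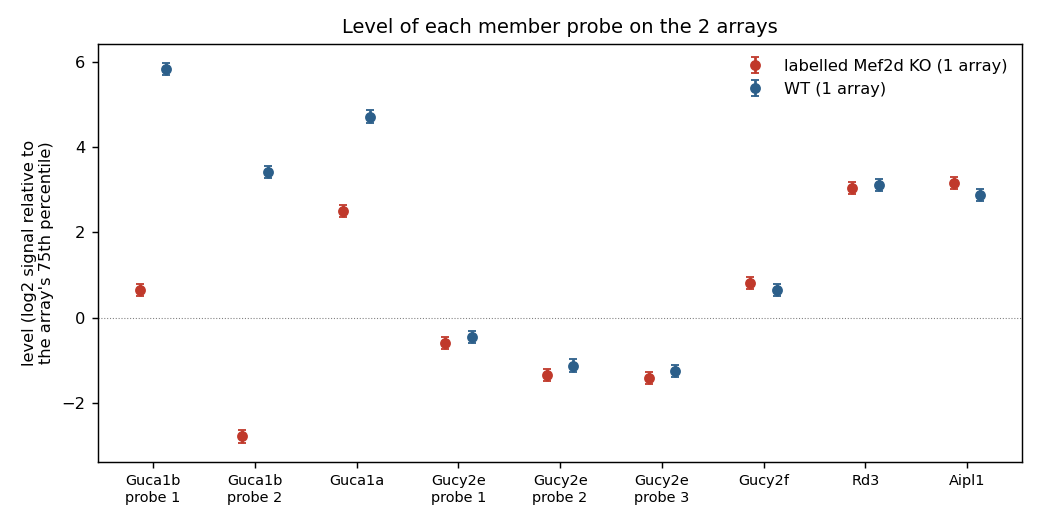
Level of each member probe (log2 processed signal relative to the array's 75th percentile, vertical axis) on the array labelled Mef2d KO and on the WT array, 1 spot per point, with bars of 1 SD of the scanner error model. The Guca1b and Guca1a points stand apart between arrays, by -5.18 and -6.20 for the Guca1b probes and -2.21 for Guca1a, while the points of the other genes lie within 0.27 of each other.

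In all, 2 of the 6 members were lower by 2-fold or more, 4 were within 2-fold and 0 were higher. The background was 1.74% lower and 0.618% higher by that rule among the 16187 genes well above background on both arrays. The set was proposed from this same contrast, so nothing is read from the comparison of these shares. Guca1b had rank 2 from the lowest difference and Guca1a rank 35. Rd3, Gucy2e, Gucy2f and Aipl1 differed by less than 0.3 in either direction, as did 78.9% of genes. Within that range, Aipl1 still lay above 91.1% of all genes and Gucy2f above 83.0%. The median difference of the 6 members was -0.10, and that of all genes counted was -0.0060. The lower share was 0.692% among genes with a mean level above 0, as Guca1a and Guca1b had, and 2.90% among dimmer genes.

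**Figure D2:**
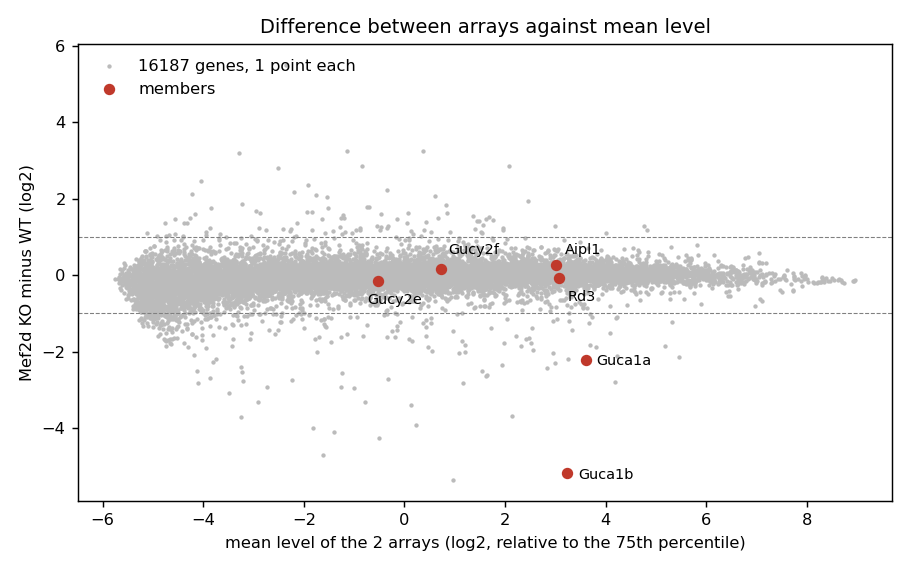
Difference between arrays (Mef2d KO minus WT, log2, vertical axis) against the mean level of both arrays (log2 relative to the 75th percentile, horizontal axis) for 16187 genes well above background on both arrays, with dashed lines at 2-fold. Guca1b (-5.18) and Guca1a (-2.21) lie below the lower line, and Gucy2e, Gucy2f, Rd3 and Aipl1 lie between the lines.

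Guca1b and Guca1a are next to each other on chromosome 17 in the RefSeq gene order, with no other measured gene between them. The genes on either side did not share their differences. On the Guca1b side, Mrps10, a mitochondrial ribosomal protein gene, had levels of 2.30 (labelled Mef2d KO) and 2.18 (WT), a difference of 0.13 ± 0.20. Beyond it Trerf1, a transcriptional regulator gene, differed by -0.31 ± 0.21 and Ubr2, a ubiquitin ligase gene, by -0.011 ± 0.20. On the Guca1a side the transcript model AI661453, dim on both arrays, differed by -0.14 ± 0.43. Further on, the TFIID subunit gene Taf8 differed by 0.17 ± 0.20 and the cyclin gene Ccnd3 by 0.053 ± 0.20. These 6 neighbours were within 2-fold, and the drop in signal was confined to the 2 sensor genes among the 8 genes in this stretch. Around the other members, the neighbours on both sides were within 2-fold too: over all members, the 29 distinct neighbours that passed the background flag on both arrays lay between -0.54 and 0.35.

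**Figure D3:**
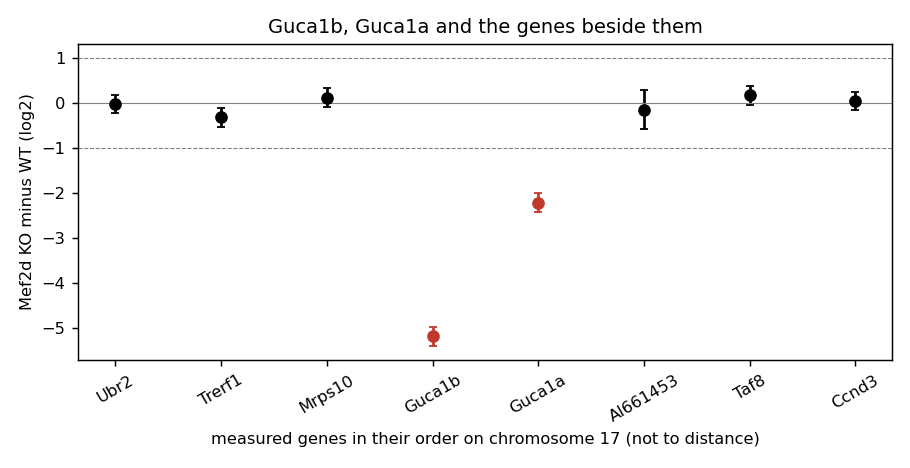
Difference between arrays (Mef2d KO minus WT, log2, vertical axis) of Guca1b, Guca1a and the 3 nearest measured genes on either side, in their order on chromosome 17 and not to distance, with bars of 1 SD of the scanner error model and dashed lines at 2-fold. Guca1b and Guca1a lie at -5.18 and -2.21, and their 6 neighbours between -0.31 and 0.17.

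None of the 9 probes was flagged as an outlier on either array, and each had 1 spot per array. The 10 spots around the brighter Guca1b spot that were well above background on both arrays had a median difference of 0.0076, the 7 around the other Guca1b spot 0.037 and the 10 around the Guca1a spot -0.057. The adjacent spots ranged from -0.51 to 3.59 around the brighter Guca1b spot, from -0.48 to 0.58 around the other and from -1.13 to 0.31 around the Guca1a spot, so at least 1 spot beside the brighter Guca1b probe (higher) and 1 beside the Guca1a probe (lower) also passed 2-fold. Before any scaling or detrending, the median pixel signals already differed by -5.06 for the brighter Guca1b probe, -5.57 for the other and -2.13 for Guca1a. For the 432 probes printed more than once, repeat spots gave differences with a median SD of 0.082, or 0.061 above a mean level of -3.

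The genes whose difference was nearest to that of Guca1b, over 2 arrays and 16187 genes, were Arr3, Jchain and Hk2. Arr3, the cone arrestin, had levels of -1.72 (labelled Mef2d KO) and 3.64 (WT), a difference of -5.36 ± 0.20. Its other probe, at levels of -3.61 (labelled Mef2d KO) and 4.62 (WT), differed by -8.23 ± 0.22, so the nearness of Arr3 to Guca1b rests on the brighter probe. Jchain, an immunoglobulin joining chain gene, differed by -4.69 ± 0.22, and Hk2, a glycolytic hexokinase gene, by -4.26 ± 0.21. Guca1b therefore had few genes near it at this size. The genes nearest to Guca1a were the nicotinic receptor subunit gene Chrna5 (-2.20 ± 0.27), the monocarboxylate transporter family gene Slc16a6 (-2.19 ± 0.20) and the lens crystallin gene Cryaa (-2.15 ± 0.20). Nearness in 2 arrays is a description, and it does not show that these genes vary together.

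The other genes of cyclic GMP signalling stayed mostly within 2-fold. Of 42 such genes in 5 lists that were well above background on both arrays, 2 were lower and 0 higher by 2-fold or more, with a median of -0.089, against 1.74% and 0.618% of all genes. Among 8 other guanylate cyclase and natriuretic receptor genes, 0 passed 2-fold and the median was -0.18. With the mean over a gene's probes 1 of them was lower past 2-fold. The largest were the soluble cyclase subunits Gucy1b2 (-0.42 ± 0.23) and Gucy1b1 (-0.29 ± 0.20). Gucy1b2 was dim, at levels of -3.71 (labelled Mef2d KO) and -3.29 (WT), and differed by only -0.074 with normexp background. Among 11 neuronal calcium sensor genes, relatives of the activating proteins, 1 passed 2-fold: Kcnip2, a potassium channel interacting protein. It had levels of -2.32 (labelled Mef2d KO) and -1.20 (WT), a difference of -1.12 ± 0.21, which was -0.94 with median scaling and -0.86 with normexp background. The list's median was -0.12 and its highest difference 0.20.

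Of the 6 genes of cyclic GMP breakdown, 1 passed 2-fold. It was Pde6h, whose product inhibits the cone phosphodiesterase, at levels of 1.63 (labelled Mef2d KO) and 4.05 (WT), a difference of -2.42 ± 0.20 (-2.79 for its other probe). The other 5 genes, among them the catalytic subunits that AIPL1 and other chaperones help to fold, lay between -0.34 and 0.38. The 7 channel and exchanger genes, which read cyclic GMP and set calcium, had a median of -0.041 and 0 past 2-fold. Cngb1, the rod channel modulatory subunit, differed by 0.33 ± 0.20 and Cnga3, the cone channel subunit, by 0.29 ± 0.20. In this list 3 genes were higher and 4 were lower, down to -0.29. Among 10 GTP supply and trafficking genes, whose median was -0.029, 0 passed 2-fold. Rd3l, a paralog of Rd3, differed by -0.61 ± 0.20, and Arl3, a small GTPase that releases cargo to the outer segment, by -0.45 ± 0.20. Of these genes 6 were lower and 4 were higher, up to 0.40.

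Markers of the cell types in the dissected tissue were set beside these values. Of 10 rod markers 0 passed 2-fold, their median was -0.033, and their signals, summed and put on the log2 scale of levels, came to 10.4 on the array labelled Mef2d KO and 10.6 on the WT array. Sag, the rod arrestin, differed by -0.82 ± 0.20 and Gngt1, a rod transducin subunit, by -0.62 ± 0.20. In this list 6 markers were lower and 4 were higher, up to 0.44. Of 10 cone markers, 2 were at least 2-fold lower, Arr3 and Pde6h, with a median of -0.18 and summed levels of 7.03 on the array labelled Mef2d KO and 7.34 on the WT array. These sums weigh the brightest probes most, such as the cone transducin subunit Gngt2 at levels of 5.99 (labelled Mef2d KO) and 5.95 (WT). The 10 bipolar markers had a median of -0.12 and 0 past 2-fold, with Pcp2 at -0.34 ± 0.20. Of 10 pigment epithelium markers 9 were measured, 0 past 2-fold, with a median of 0.20, Tyrp1 at 0.41 ± 0.20 and Slc16a8 at 0.39 ± 0.20.

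Most lens markers were also lower on the array labelled Mef2d KO. Of 12 lens markers well above background on both arrays, 11 were lower by 2-fold or more, and 9 with normexp background. The differences of the 11 ran from -4.09 ± 0.21 for Mip, the lens water channel, up to -1.31 ± 0.20 for Bfsp2, a lens filament protein. Bfsp1, its partner filament protein, was the exception at 0.30 ± 0.20. Lim2 was well above background on the WT array only. Its difference of -2.72 ± 0.36 rests on that dim value, and was -0.92 with normexp background. The list's median was -1.92, and its levels summed to 5.26 on the array labelled Mef2d KO and 7.37 on the WT array. Of the 13 markers, 12 were well above background on the array labelled Mef2d KO and all 13 on the WT array. Their part in the Guca1a and Guca1b values was not tested.

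**Figure D4:**
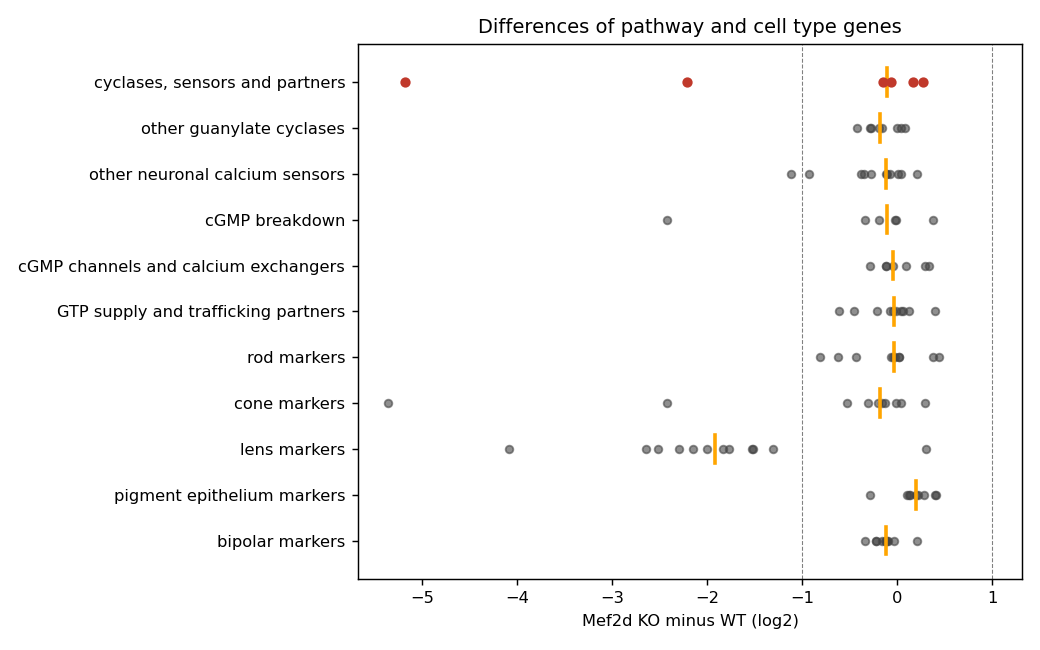
Difference between arrays (Mef2d KO minus WT, log2, horizontal axis) of each gene well above background on both arrays, for the 6 cyclase, sensor and partner genes (top row) and 10 lists of pathway and cell type genes, with the list median as an orange bar and dashed lines at 2-fold. The lens row centres on -1.92, while the rod and cone rows centre on -0.033 and -0.18.

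The Guca1a and Guca1b differences changed little beside their size with how the arrays were scaled. Guca1a lay between -2.23 and -2.03 and Guca1b between -5.69 and -5.00 over the 8 other ways of processing. The small differences of the other members did depend on it. With median scaling the median gene stood at 0.17, Gucy2e (0.034) and Rd3 (0.12) turned positive, and Gucy2f and Aipl1 rose to 0.35 and 0.45. The order of the 6 genes was the same in each setting. Scaling an array by a constant, or subtracting the median gene, cannot change that order, so little is read from it.

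**Figure D5:**
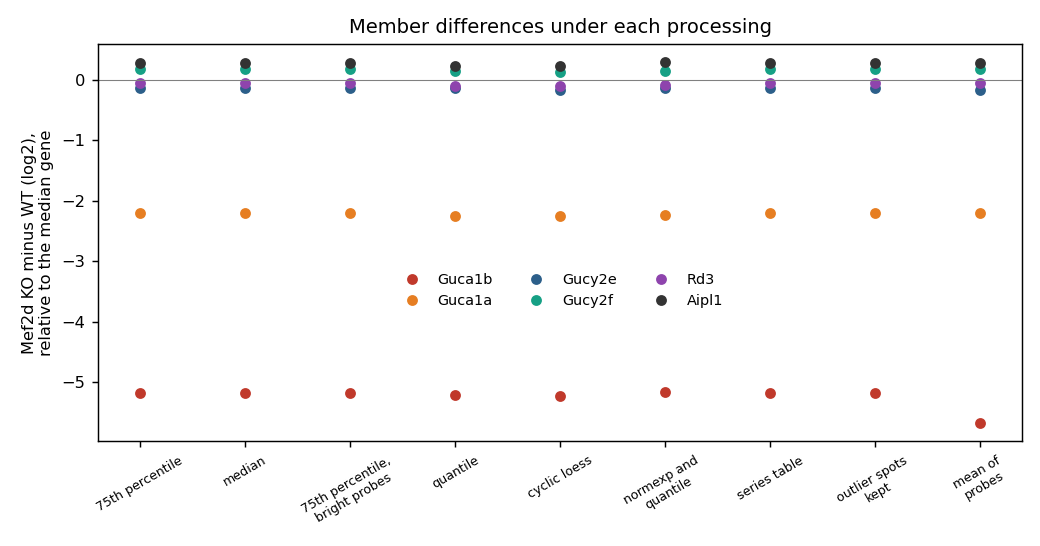
Difference of each member (Mef2d KO minus WT, log2, minus the median of all genes counted, vertical axis) under 9 ways of processing the arrays (horizontal axis), 1 point per gene and setting. Guca1b lies between -5.68 and -5.15 and Guca1a between -2.25 and -2.19, and the other 4 genes between -0.16 and 0.30.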

How the data were processed

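Cy3-labelled RNA of mouse retina at postnatal day 14 was read on 2 Agilent arrays, 1 labelled Mef2d KO and 1 WT, per the labels' protocols. Intensity is the processed signal deposited by the authors. It came from Agilent Feature Extraction 10.10.1.1, with background subtraction and detrending within each array and no scaling between them, per the file headers. The deposited series table was set against these intensities spot by spot: it equals them times a constant (1.76 for Mef2d KO, 1.88 for WT). Its scale is linear and uncentred, its column medians are 136.6 and 155.1, and the origin of the constants is not stated in the sources used here.

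Levels were log2 processed signal minus the array's 75th percentile (857.9 for Mef2d KO, 807.5 for WT) over 59305 probe spots. After removal of control spots and outlier-flagged spots (126 and 106), spots of a probe were averaged, leaving 55669 probes. RefSeq accessions of the GRCm38.p6 annotation named 27231 of them, for 20659 genes. Since the array design names mm9, that annotation gave the probes only gene names, chromosome and gene order. A gene was represented by its probe of highest mean level, and a gene had to be well above background on both arrays to be counted. For a gene read on 1 array, the bound used the dim value or, if higher, that array's lowest level among probes passing the background flag.

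Named genes were the members, list genes past 2-fold or else the 2 largest of a list, the 3 nearest measured genes on each side of a member, and the 3 genes nearest in difference to a member past 2-fold. Of the 11 lens genes past 2-fold the extremes are named, and Bfsp1 and Lim2 were named after their values were seen. A list gene that this rule would name is not reported here. The members and lists were chosen with earlier results of these data known. Functions were tested on simulated data. The 8 alternatives for the members were scaling by the median or by the 75th percentile of bright probes, quantile normalization, cyclic loess, normexp (offset 50, median spot signals, then quantile), the series table, outlier spots kept, and the mean over a gene's probes. The number of arrays limits precision. Tools were R 4.3.3, limma 3.58.1, Python 3.11.15, numpy 2.4.6, pandas 2.3.3, and matplotlib 3.10.9.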

Additional observations from a re-analysis of the deposited data

How the results depend on the processing

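With 1 array per group, no setting supplies a replicate. Guca1b and Guca1a kept their direction and stayed past 2-fold under all 8 alternatives run. Guca1b was -5.69 with the mean over its probes, and no other member moved by more than its error model SD. The number of members past 2-fold was 2 lower and 0 higher under every alternative, the 1.5-fold threshold included. Counts over all genes depended on the processing: against 281 lower and 100 higher, median scaling gave 170 and 151, quantile normalization 164 and 156, cyclic loess 162 and 154, and normexp background 95 and 63. The 1.5-fold threshold gave 881 and 336, and genes well above background on at least 1 array gave 888 and 127. Kcnip2 alone among the calcium sensor relatives left the 2-fold count, with median scaling and with normexp background. The causes were not tested. No paired analysis was possible because each group holds 1 array.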
